A study of Mus musculus with 4 samples.

Results

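Lipid droplets are the organelles in which cells keep triglyceride and cholesterol ester, and the 10 genes described here make proteins that coat them, join them, empty them, or mark the adipocyte. The genes were chosen by function, as perilipin coats (Plin2, Plin5), the CIDE family (Cidea, Cideb, Cidec), droplet lipases (Pnpla2, Pnpla3) and adipocyte products (Adipoq, Cfd, Car3), at a time when values of these same arrays were known. For that reason the levels below are a description. The members were given no test of their own beyond a check for 1 mouse lying far from the rest. The test of spread over all probe sets included them. A probe set counted as a member when the platform annotation gave it 1 of these symbols and no other. This gave 11 probe sets for 9 of the 10 genes, out of 22626 probe sets, of which 20380 carried 1 symbol and covered 12393 genes. No probe set carried Cfd as its symbol, so Cfd (adipsin, a serine protease of the complement system released by fat) was not analysed here.

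The samples were livers of 4 male ABCA1-TG mice, which overexpress ABCA1, the transporter that loads cholesterol and phospholipid onto apolipoprotein A-I, with 1 array of amplified total RNA per sample. The strain is given as C57BL/6, the age as 5 to 6 months and the diet as NIH36. The promoter and the species of the transgene are not given in the sources used here. The series design also names wild-type controls, which were not analysed here, so only differences between the transgenic mice can be given, and with 1 array per mouse animal and array cannot be told apart. The mice are called 1 to 4 after their replicate numbers, and the labels call them biological replicates without saying more of the animals, so every SD measures the spread between these samples. Abca1 measured 12.82 ± 0.17 log2 (SD, n = 4) on its brightest probe set, so the livers were close in that signal. Its dimmer probe sets measured 8.87 ± 0.24 and 8.06 ± 0.25 log2 (SD, n = 4). Whether any of these probe sets reads the transgene is not known here. Markers of hepatocytes were close between the mice: all 9 measured, among them Alb, Apoa1 and Cyp2e1, differed by less than 1 log2 between the highest and the lowest mouse. Mouse 1 stood apart in other respects. Skeletal muscle markers had a median 2.53 log2 below the other mice there, the 3-prime to 5-prime difference of the Gapdh control probe sets was 1.67 log2 against 1.94 to 2.03 in the others, and the 18S signal was 9.95 log2 against 8.75 to 8.98. Shifting the arrays to the same median would move mouse 4 by 0.11 log2 and the others by less than 0.1.

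In hepatocytes the surface of a droplet is covered mainly by PLIN2, and PLIN5 tethers droplets to mitochondria. CIDEB is the CIDE protein of normal liver, where it also takes part in the lipid loading of very low density lipoprotein, whereas CIDEA and CIDEC are the forms of brown and white fat and appear in liver when it becomes fatty. CIDE proteins let lipid pass from smaller to larger droplets at their contact sites. PNPLA2, also called ATGL, removes the first fatty acid from triglyceride, and PNPLA3 is a droplet protein of the same family that is known to be made under control of SREBP-1c. Adiponectin, the product of Adipoq, is a hormone that only adipocytes make in quantity, while Car3, a carbonic anhydrase, is abundant in fat and in muscle and is also a known product of male rodent liver. The genes were therefore read as 5 hepatocyte droplet genes (Plin2, Plin5, Cideb, Pnpla2, Pnpla3) and 4 adipose-restricted genes (Cidea, Cidec, Adipoq, and the unmeasured Cfd), with Car3 kept apart.

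Cidea, Cidec and Adipoq had the widest differences between the livers in log2 terms, but spread depends on level, and relative to level the classes overlapped. All 3 measured adipose-restricted genes differed by more than 1 log2 (2-fold) between the highest and the lowest mouse, and 0 of the 5 hepatocyte genes and neither probe set of Car3 did. Over all probe sets 32.3% passed this difference, so 3 of 11 member probe sets is near the background share. The share depends on level: it was 11.5% of the 3381 probe sets with mean log2 levels of 8 to 9, where Cidea and Cidec lie, 61.7% of the 2449 at 6 to 7, where Adipoq lies, and 3.40% of the 2352 at 11 to 13. Relative to the prior SD that limma fitted at each level, the SD was 3.87 times for Cidea, 2.20 for Cidec, 1.97 for Cideb, 1.48 for Adipoq and 1.43 for Plin2, so that Cideb exceeded Adipoq. Without mouse 2 only 1 of the 11, that of Cidea, passed. The adipose-restricted genes did not vary together. Cidea and Cidec were highest in mice 1 and 4, while Adipoq was highest in mouse 2 and lowest in mouse 1. No probe set of the array passed limma's test of excess spread (0%, 0 of 22626, adjusted p under 0.05 by Benjamini-Hochberg), and 839 had an unadjusted p under 0.05.

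**Figure D1:**
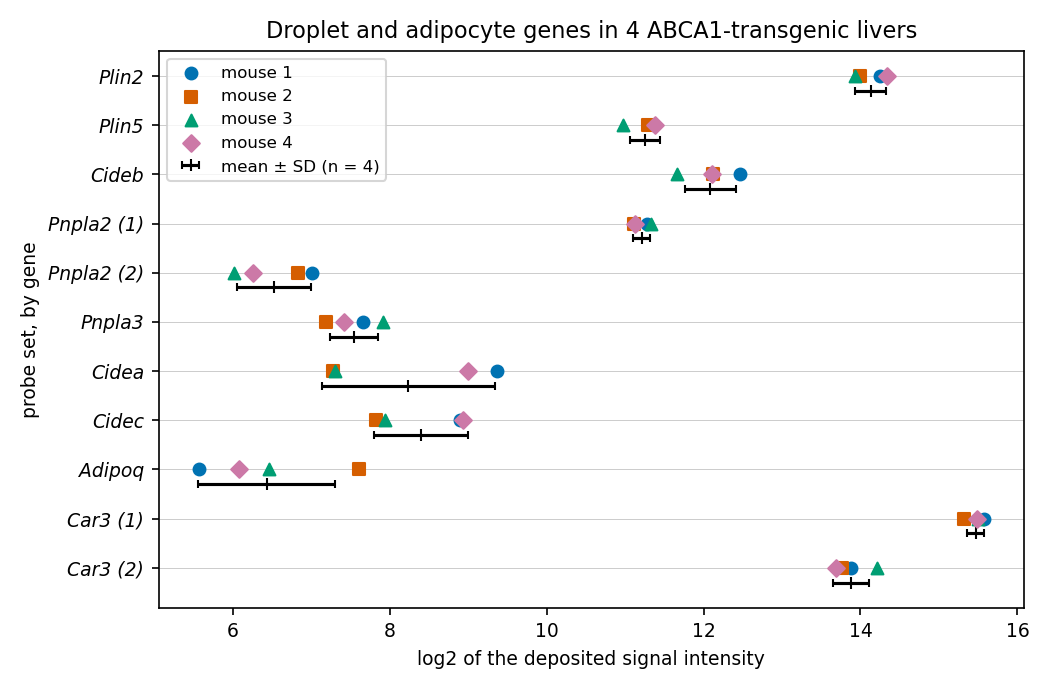
Log2 of the deposited signal (horizontal axis) of the 11 member probe sets (vertical axis) in each of the 4 mice, with the mean and SD (n = 4) as a bar under the points. The points of Cidea, Cidec and Adipoq are spread over 2.09, 1.11 and 2.05 log2, and those of the first Pnpla2 and the first Car3 probe set over 0.21 and 0.26.

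Cidea had the widest spread of the members. In mice 1, 2, 3 and 4 its log2 level was 9.37, 7.28, 7.30 and 8.999, which are signals of 662.5, 155.7, 157.9 and 511.6. Mice 1 and 4 were both high and mice 2 and 3 were both low, with no value between. The SD was 1.10 log2 (n = 4), and the highest mouse was 4.25-fold above the lowest. With any 1 mouse left out the SD stayed between 0.99 and 1.20. CIDEA was first described as an activator of cell death and is best known as a droplet protein of brown fat.

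Cidec, known as Fsp27 in the mouse, had a narrower difference in the same animals. Its level was 8.90, 7.82, 7.94 and 8.94 log2 in mice 1, 2, 3 and 4, with a mean of 8.40 ± 0.60 (SD, n = 4) and a 2.16-fold difference between mouse 4 and mouse 2. As for Cidea, mice 1 and 4 were high, mice 2 and 3 low, and the values within each of these pairs differed by less than the gap between them. The SD was 2.20 times the prior SD at that level. When the arrays were shifted to the same median, quantile normalized, given a pseudocount of 32 or floored at a signal of 64, mouse 1 remained the highest for Cidea, mouse 4 the highest for Cidec, and mouse 2 the lowest for both.

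Cideb, the hepatocyte member of the family, followed another order. Across mice 1 to 4 it measured 12.46, 12.12, 11.66 and 12.11 log2, so that mice 2 and 4 lay together and mouse 3 was low. The mean was 12.09 ± 0.33 (SD, n = 4), 1.97 times the prior SD, and the highest mouse was 1.74-fold above the lowest. Its probe set identifier ends in _s_at, which marks probes that can match several transcripts.

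Plin2 and Plin5 were close between the mice and highest in mouse 4. Plin2 measured 14.25, 14.00, 13.94 and 14.34 log2 in mice 1 to 4, a mean of 14.13 ± 0.19 (SD, n = 4) with a 1.32-fold difference from mouse 3 to mouse 4. The order by pairs was that of Cidec, with mice 1 and 4 above mice 2 and 3, with a smaller difference. Quantile normalization made mouse 2 the lowest. Plin5 was at 11.37, 11.29, 10.98 and 11.39 log2, and 3 of the mice lay within 0.10 log2 of each other with mouse 3 below them. The SD of Plin5 was 0.19 log2 over the 4 mice and 0.054 without mouse 3. Quantile normalization put mouse 1 above mouse 4, which are close to each other.

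The droplet lipases varied no more than other probe sets of their level. Pnpla2 measured 11.27, 11.12, 11.33 and 11.13 log2 in mice 1 to 4 on its brighter probe set, a mean of 11.21 ± 0.11 (SD, n = 4), or 0.60 times the prior SD. Its order changed with the scaling: mouse 1 became the highest after the shift to the same median and mouse 4 the lowest after quantile normalization. A second probe set of the gene gave 7.01, 6.83, 6.01 and 6.25 log2, with mouse 3 lowest where the first probe set had it highest, so the 2 probe sets disagree. The difference on that second probe set was 1.99-fold (0.83 times the prior SD) and passed the 2-fold mark after quantile normalization and after the shift to the same median. Pnpla3 was at 7.66, 7.19, 7.91 and 7.42 log2, highest in mouse 3 and lowest in mouse 2, with a mean of 7.54 ± 0.31 (SD, n = 4), a 1.65-fold difference and 0.85 times the prior SD.

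Adipoq ran in the other direction from Cidea and Cidec. Its signals were low, at 47.3, 196, 88.3 and 67.6 in mice 1 to 4, or 5.56, 7.61, 6.46 and 6.08 on the log2 scale. Mouse 2 lay apart above the other 3. The mean was 6.43 ± 0.87 (SD, n = 4), 1.48 times the prior SD at that level, and the highest mouse was 4.14-fold above the lowest. Without mouse 2 the SD was 0.45 log2, and without mouse 3 it was 1.07. A transcript of adipocytes that is higher in 1 liver sample can come from more of those cells or from more RNA per cell, which cannot be told apart in RNA of whole tissue.

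Car3 varied little between the livers. Its brighter probe set measured 15.57, 15.31, 15.50 and 15.49 log2 in mice 1 to 4, a mean of 15.47 ± 0.11 (SD, n = 4), and mouse 2, which was highest for Adipoq, was lowest. The second probe set gave 13.87, 13.76, 14.20 and 13.69 log2, with mouse 3 highest. The mice differed by 1.20-fold on the first and 1.43-fold on the second probe set. On the second probe set mouse 4 was the lowest as deposited and mouse 2 after the shift to the same median.

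**Figure D2:**
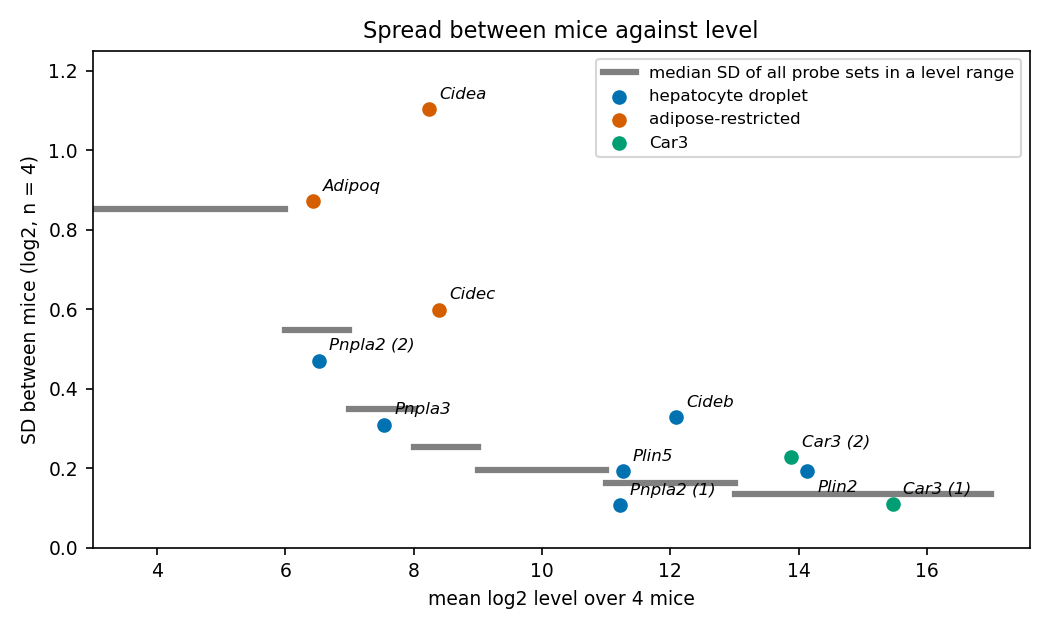
SD between the 4 mice (vertical axis, log2) against the mean log2 level (horizontal axis) of each member probe set, with the median SD of all probe sets in 7 level ranges as grey lines. Cidea (1.10) and Cidec (0.60) lie above the line of their level range (0.25), and so do Cideb (0.33) and Plin5 (0.19) above 0.16 and Plin2 (0.19) and the second Car3 probe set (0.23) above 0.14. The first Pnpla2 probe set (0.11) and Pnpla3 (0.31) lie below theirs (0.16 and 0.35).

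Taken as classes, the contrast between the adipose-restricted and the hepatocyte droplet genes depended on how the genes were summarised, because Adipoq opposed Cidea and Cidec. For each gene the mean of the other 3 mice was subtracted from each mouse, and the median over the class was taken. For the 5 hepatocyte droplet genes this position was 0.16, -0.12, -0.26 and 0.03 log2 in mice 1 to 4. For the 3 adipose-restricted genes it was 0.66, -0.77, -0.61 and 0.72 log2 in the same mice. In each mouse this median was the value of Cidec, which lay between those of Cidea and Adipoq. The difference between the classes was thus 0.50, -0.64, -0.35 and 0.68 log2. With the mean over genes in place of the median it was 0.13, -0.016, -0.49 and 0.38 log2, close to 0 in mouse 2, and with Car3 added to the adipose-restricted genes it was -0.029 in mouse 3. The hepatocyte position in mouse 2 was 0.04 log2 when the probe sets of a gene were averaged, and that in mouse 3 was -0.11 with the mean over genes. The median over all probe sets ran from -0.07 in mouse 4 to 0.09 in mouse 3. Cidea and Cidec alone, a pair set apart after their values were seen, stood at 1.09, -1.02, -0.93 and 0.86 log2. Adipoq alone stood at -1.16, 1.58, 0.05 and -0.47 log2, the opposite sign in each mouse, though close to 0 in mouse 3. Of the 9 genes, 3, 1, 2 and 3 were highest in mice 1, 2, 3 and 4, where 19.7%, 29.5%, 32.3% and 18.5% of all probe sets were highest. Mouse 2 was the lowest for 5 of the 9 (20.7% of all probe sets) and mouse 3 for 3 (20.8%).

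The genomic sequence before the start of 4 members is shown. Cidec, Plin2 and Plin5 were highest in mouse 4 as deposited, though Plin5 was highest in mouse 1 after quantile normalization. Adipoq had another order of mice. Several droplet genes are known as targets of PPAR receptors, and Adipoq is not meant here as a gene free of such control. The part of these receptors in the order of mice was not tested. PPAR receptors bind as heterodimers with RXR to direct repeats of the half-site AGGTCA with 1 base between. The stretches come from RefSeq (GRCm38.p6), are read 5′ to 3′ on the strand of the gene, hold up to 250 bases before a transcript start, and leave out any part inside the annotated span of the gene. They lie at chr6:113435761-113436010 (minus strand) for Cidec, chr4:86670218-86670309 (minus strand) for Plin2, chr17:56117607-56117798 (minus strand) for Plin5 and chr16:23146286-23146535 (plus strand) for Adipoq. Capitals mark AGGTCA on either strand.
Cidec: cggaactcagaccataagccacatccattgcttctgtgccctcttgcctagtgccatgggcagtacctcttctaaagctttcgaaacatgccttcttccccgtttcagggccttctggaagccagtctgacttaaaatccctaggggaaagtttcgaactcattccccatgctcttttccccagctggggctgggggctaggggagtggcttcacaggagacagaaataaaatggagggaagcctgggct
Plin2: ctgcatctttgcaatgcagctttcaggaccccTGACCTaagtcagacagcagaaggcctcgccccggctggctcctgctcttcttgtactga
Plin5: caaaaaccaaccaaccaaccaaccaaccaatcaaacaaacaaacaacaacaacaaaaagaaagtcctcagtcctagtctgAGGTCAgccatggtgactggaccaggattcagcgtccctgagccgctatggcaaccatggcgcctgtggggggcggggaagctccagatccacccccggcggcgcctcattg
Adipoq: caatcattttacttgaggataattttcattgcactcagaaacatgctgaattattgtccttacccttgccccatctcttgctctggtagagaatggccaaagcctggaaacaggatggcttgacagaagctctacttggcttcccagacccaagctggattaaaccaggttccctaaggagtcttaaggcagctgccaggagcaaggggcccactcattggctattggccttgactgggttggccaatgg
The half-site AGGTCA, searched on both strands, was present once in the Plin2 stretch, where it reads TGACCT, and once in that of Plin5. It was absent from those of Cidec and Adipoq. It was held by 14.0% of the 32851 windows of 250 bases that RefSeq gave, and the complete direct repeat with 1 base between, which contains the half-site, was in 11 of them and in no window of a member. The table had windows for 8 of the 10 genes and for neither Cidea nor Car3. The letters CCAAT, on either strand, were found 3 times before the start of Adipoq. The windows of Plin5, Pnpla3 and Plin2 held them too, for Plin2 outside the stretch shown. At least 1 match was in 33.8% of all windows. A match is a run of letters and is no evidence of binding.

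Other droplet genes, 17 of 21 listed, gave 2 with a difference above 1 log2 on the brightest probe set, G0s2 and Lpin1 (32.3% of all probe sets). Dimmer probe sets of Lipa, Bscl2, Hsd17b11 and Mgll passed too, at 1.70, 1.68, 1.35 and 1.24 log2. Mouse 3 was the lowest on every probe set of Lipa and Hsd17b11, so theirs differ in the size of the difference. That of Mgll had a mean of 4.42 log2, and under 6 log2 79.5% of all probe sets passed. The dimmer probe set of Bscl2 was higher in mice 1 and 4 than in mice 2 and 3. Its brighter one was lowest in mouse 1, so these disagree. G0s2, an inhibitor of PNPLA2, measured 13.56, 12.76, 12.22 and 13.77 log2 in mice 1 to 4, with a 2.93-fold difference between mouse 4 and mouse 3 and an SD 4.75 times the prior. Like Cidec and Plin2 it was higher in mice 1 and 4 than in mice 2 and 3. Lpin1, a phosphatidic acid phosphatase on the way to triglyceride, measured 12.92, 12.97, 11.74 and 12.79 log2, with mouse 3 apart below the others, and its second probe set was also lowest there, at 11.38 log2 against 12.58 to 13.13. Dgat1, an enzyme of the last step of triglyceride synthesis, had the smallest relative spread, at 10.38 ± 0.05 (SD, n = 4). Of the 17 genes 10 were lowest in mouse 3, against 20.8% of all probe sets.

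The other adipocyte genes resembled Adipoq only in part. Of 14 measured among 17 listed, 7 differed by more than 1 log2 (32.3% of all probe sets) and 8 were highest in mouse 2 (29.5%). Some of the 7, such as Lep, had mean levels under 6 log2, where 79.5% of probe sets passed this difference. The median SD of the list was 0.79 times the prior SD. The median position of the list was 0.35 log2 in mouse 2 and -0.38 in mouse 4. Retn, the adipocyte hormone resistin, measured 7.02, 8.89, 8.19 and 7.51 log2 in mice 1 to 4. The order of the mice was that of Adipoq, with mouse 2 first, then mice 3 and 4, and mouse 1 last. Retn, Lep and Fabp4 are named here after their values were seen. Lep, the hormone leptin, was at 4.29, 5.39, 4.08 and 4.10 log2, also highest in mouse 2, at signals where SDs between mice are wide. Slc2a4, the insulin-regulated glucose transporter of fat and muscle, was at 7.41, 8.32, 8.03 and 5.64 log2, while its second probe set was lowest in mouse 1, at 4.10 log2. Plin4, a perilipin of white fat, did not follow Adipoq: it measured 10.26, 10.14, 8.95 and 10.39 log2, with mouse 3 low, as for Plin5. Cox8b, a subunit found in brown fat and muscle, had the smallest relative spread, with 3.93 to 4.61 log2. Fabp4, the fatty acid binding protein of adipocytes that macrophages and endothelium also make, was highest in mouse 2 on its brightest probe set, at 8.93 log2 against 8.17 to 8.61, whereas its other 3 probe sets were highest in mouse 3.

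Markers of the exocrine pancreas were also high in mouse 2, and those of skeletal muscle were low in mouse 1. The 10 measured genes of the exocrine pancreas were all highest in mouse 2, as were 29.5% of all probe sets. Their median position there was 1.64 log2 and their summed signal 7469, against 2050 to 3291 in the other mice. Skeletal muscle markers had summed signals of 1440, 11201, 8170 and 10243 in mice 1 to 4, with positions of -2.53, 1.27, 0.73 and 0.98 log2. The summed signal of the 14 adipocyte genes reached 5089 in mouse 2, against 3701 to 4158 elsewhere, and no marker was at a signal of 0. Of the macrophage (10) and endothelial (9) markers 0 differed by more than 1 log2, and 5 of 7 bile duct markers did (32.3% of all probe sets). The bile duct markers were dimmer, at 3.26 to 9.09 log2 against 8.78 to 13.81 for macrophage markers. Relative to the prior SD, the median SD was 0.91 for bile duct, 1.13 for macrophage and 0.73 for endothelial markers. For Cidea and Cidec, which were high in mice 1 and 4, muscle and pancreas markers were at -2.53 and -0.99 log2 in mouse 1 and at 0.98 and 0.18 log2 in mouse 4. The part of adjoining tissue and of RNA length in these differences was not tested.

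**Figure D3:**
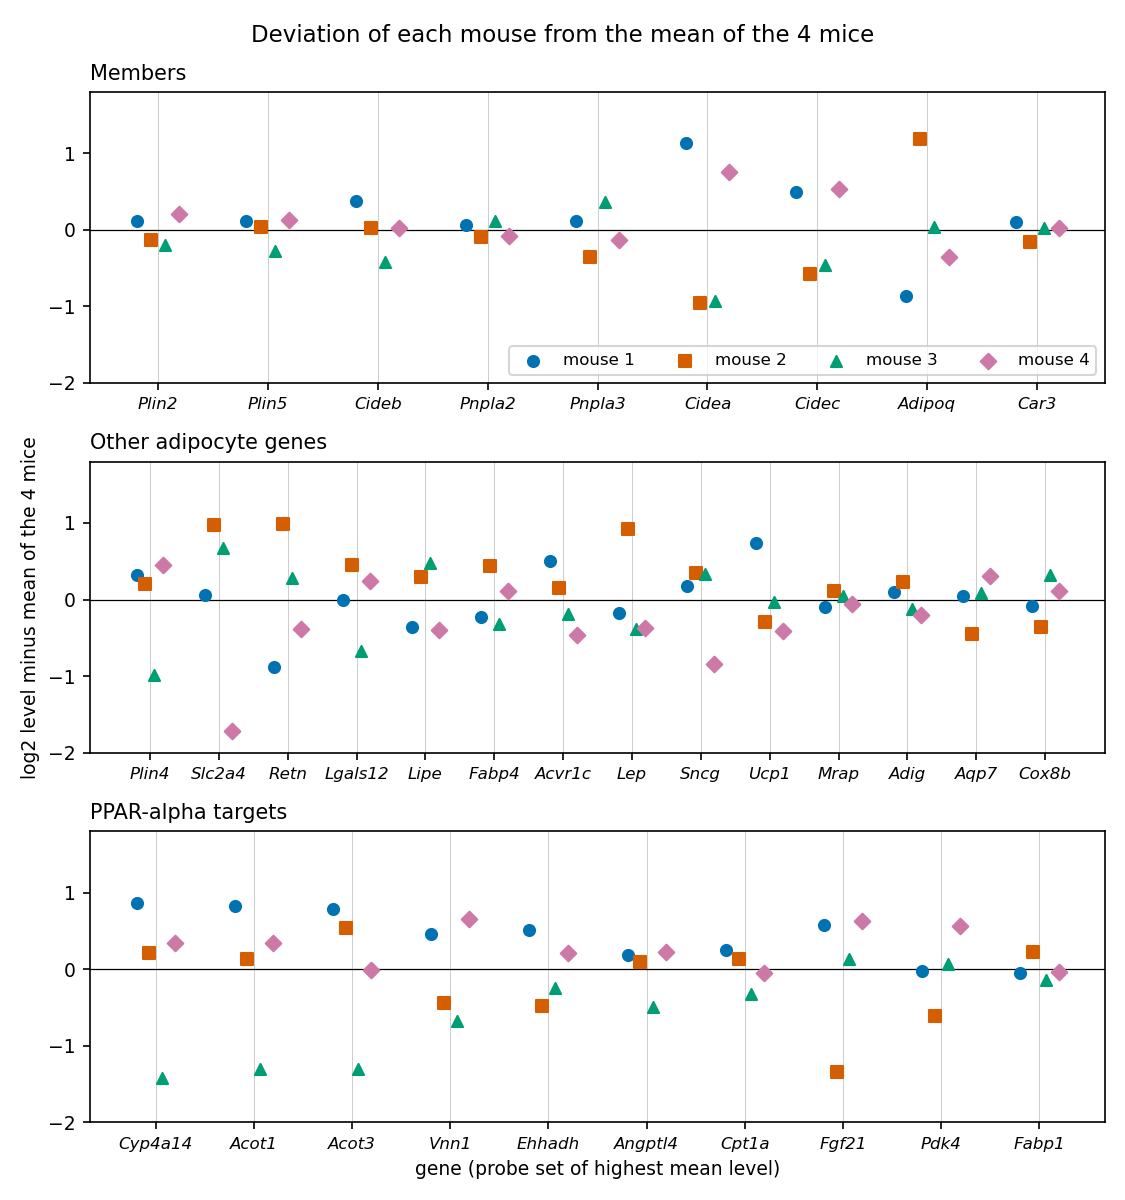
Log2 level in each mouse minus the mean of the 4 mice (vertical axis) for the 9 measured members (top), the 14 other adipocyte genes (middle) and the 10 PPAR-alpha targets (bottom), by the probe set of highest mean level. Mice 1 and 4 lie above zero for Cidea and Cidec, and mouse 2 lies at the top for Adipoq, Retn and Lep.

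PPAR-alpha, the nuclear receptor that drives fatty acid oxidation in liver, is known to raise several droplet genes, and its targets were read beside them. Of 10 measured among 15 listed, 7 differed by more than 1 log2 (32.3% of all probe sets) and 7 were lowest in mouse 3 (20.8%). The median position was 0.65, 0.14, -0.55 and 0.37 log2 in mice 1 to 4. Cyp4a14, a fatty acid hydroxylase, was at 14.08, 13.41, 11.78 and 13.55 log2 in mice 1 to 4, and Acot1, an acyl-CoA thioesterase, at 12.19, 11.50, 10.06 and 11.70. In both, mouse 3 was low and mouse 2 lay near mouse 4, and mouse 3 was also the lowest for Plin5 and Plin4. Vnn1, a pantetheinase, and Ehhadh, a peroxisomal oxidation enzyme, were both higher in mice 1 and 4 than in mice 2 and 3. Chosen after their values were seen, Vnn1 measured 12.92, 12.01, 11.78 and 13.11 log2 and Ehhadh 13.40, 12.40, 12.64 and 13.09. Fabp1, the liver fatty acid binding protein, had the smallest relative spread of the list, at 15.25 ± 0.16 (SD, n = 4), but its second probe set gave 15.05, 14.26, 14.39 and 15.08 log2, high in mice 1 and 4, so its 2 probe sets disagree.

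Lipogenic genes, which SREBP-1c and ChREBP drive, had other orders. Of 13 measured, 3 differed by more than 1 log2 (32.3% of all probe sets). The position of the list was -0.32 log2 in mouse 1 and 0.37 in mouse 3. Srebf1 was at 11.54, 12.01, 13.44 and 11.65 log2 in mice 1 to 4, with mouse 3 high. Pnpla3 was also highest in mouse 3, but mouse 2 was second for Srebf1 and last for Pnpla3. Thrsp, a regulator of fatty acid synthesis, was at 13.94, 15.11, 15.01 and 14.42 log2. It was high in mice 2 and 3, where Cidea and Cidec were low. Elovl5, a fatty acid elongase, differed least, at 14.16 ± 0.08 (SD, n = 4), on a probe set whose identifier ends in _x_at, and its other probe set gave 13.79, 13.36, 13.24 and 13.93 log2.

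**Figure D4:**
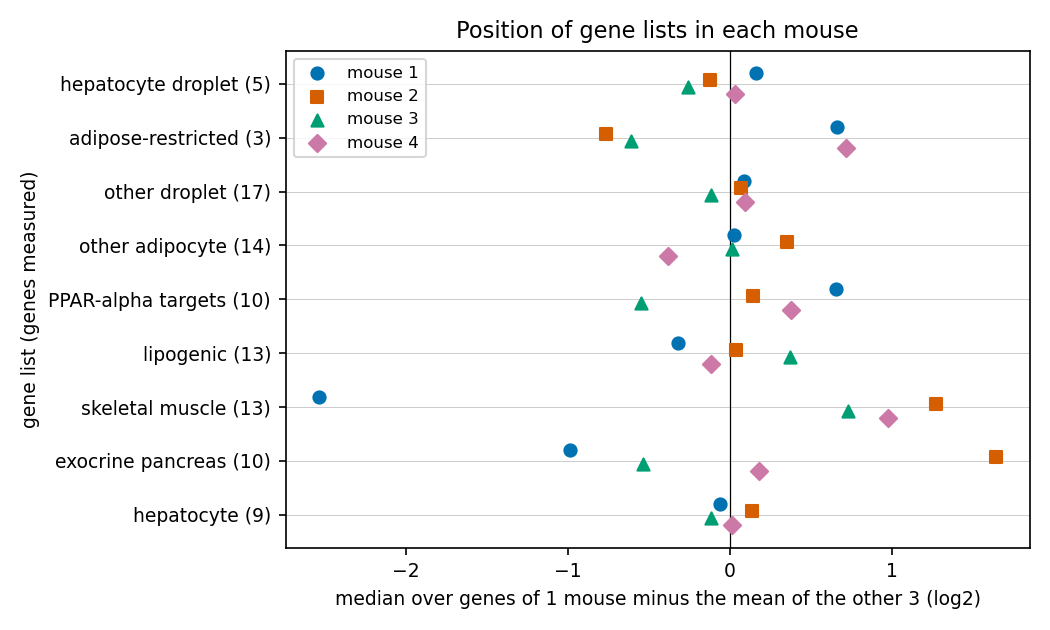
Median over the genes of a list of the difference between a mouse and the average of its 3 companions (horizontal axis, log2), for 9 lists (vertical axis, genes measured in brackets). The adipose-restricted genes lie at 0.66 and 0.72 in mice 1 and 4, and the other adipocyte genes at 0.03 and -0.38. The adipose-restricted median is the value of Cidec in each mouse.

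Genes with the most similar pattern were searched for the widest member of each class. Likeness was the root mean square difference of log2 values, each centred on its mean over the 4 mice, among genes above the 25th percentile of mean level. For Cidea the nearest were Med17 (0.19 log2), Zfp574 (0.20), Clasp2 (0.20), Slc4a4 (0.21) and Sting1 (0.22). Cidec took rank 38 of 10062 genes, at 0.46 log2, and Adipoq rank 9901. Seen from Cidec, whose own deviation was 0.52 log2, Cidea took only rank 2294, behind Plin2 (772), Cideb (1285) and Plin5 (1591). The measure counts the size of the differences as well as the order of mice. Cideb, at 0.40 log2 from Cidec, had another order, whereas Cidea, at 0.46, was high in mice 1 and 4 as Cidec was. For Cideb the nearest were Rit1 (0.016), Serinc3 (0.022), Iqgap2 (0.041), Clcn3 (0.042) and Zfp689 (0.043). The search was repeated for the other members after the data were seen. For Adipoq the nearest gene was Prss2, a pancreatic trypsin, at 0.052 log2 on 1 of its probe sets, and Retn had rank 3, at 0.16. Members with little spread had nearer neighbours, and Plin2, whose values deviate from their mean by 0.17 log2 in root mean square, had its nearest 5 genes at 0.0075 to 0.016.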

How the data were processed

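Liver RNA of 4 ABCA1-TG mice was measured with 1 array each. The authors deposited 1 linear signal intensity per probe set, and RMA is the method given, with no version, per the submitters' processing notes. The lowest deposited intensity was 0.1, the values are linear, and array medians ran from 267 to 305, whereas RMA as usually run gives log2 values distributed alike on every array. Whether the values were normalized between mice is therefore not known here, nor is the background treatment. Values were log2-transformed as they stood, without pseudocount or renormalization, after 64 control probe sets were left out. Names came from the platform annotation. The probe set of highest mean level stands for a gene in counts and positions. The number of arrays limits the precision.

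With 1 group, the test across probe sets was of spread: the variance between mice against a trended, robust prior (limma 3.58.1, R 4.3.3), upper-tail F, Benjamini-Hochberg adjustment over all probe sets, threshold 0.05. It was also run on simulated data in which some probe sets had a larger SD. What size of spread it detects with 4 mice is not reported here. Dixon's ratio was used on 23 probe sets of members and named genes to look for a distant mouse. The members and lists were chosen with earlier results of these data known. Named genes are all members, Abca1, per list the 2 genes of largest and the 1 of smallest SD relative to the prior, and the 5 nearest patterns of the widest member of each class. Cfd was not analysed here. The labels name a further part of the genetic background, which is not reported here. Alternatives were other scalings, a floor, a pseudocount, other rules for probe sets and classes, and leaving out each mouse.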

Additional observations from a re-analysis of the deposited data

Results flagged for a closer look

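Of the 23 probe sets of members and of list genes named by rule that were examined for 1 mouse far from the other 3, 1 was singled out. Lep and Cyp2e1, named in the text but not among the 23, had ratios of 0.84 and 0.88, with mouse 2 highest in both. Mgll had 0.92 on its brightest probe set, and Lipa 0.8292 on the dimmer probe set given above, with mouse 3 lowest in both. These are examples and no full list. Lpin1 measured 11.74 log2 in mouse 3, and the gap to the nearest other mouse was 0.85 of the whole range, above Dixon's critical value for 4 samples. Chance gives about 1 such case in 20 for genes chosen without their values, whereas Lpin1 was named for its large SD in these data.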

How the results depend on the processing

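The 4 arrays form 1 group, so differences between mice cannot be told apart from differences between arrays, and low signals such as those of Adipoq are noisy. The count of member probe sets above 1 log2 ran from 1 to 3 when 1 mouse was left out, the lowest without mouse 2. The hepatocyte droplet position in mouse 3 was -0.050 log2 without probe sets ending in _s_at or _x_at, which takes out Cideb, and in mouse 4 it ran from -0.0079 to 0.22 when a mouse was left out. With Adipoq as the only adipose-restricted gene, an alternative added after the data were seen, the class position in mice 1, 2 and 4 was -1.16, 1.58 and -0.47 log2, and its difference from the hepatocyte droplet genes was -1.31, 1.70, 0.30 and -0.50 log2 in mice 1 to 4. The spread test passed 6 probe sets when only the 16969 above the 25th percentile of mean level were tested, with 964 at an unadjusted p under 0.05. Over all probe sets 3230 differed by more than 1 log2 with signals under 64 raised to 64, and 4235 with a pseudocount of 32, against 7309. No paired analysis was possible because there is only 1 group.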
